A study of Oryzias latipes with 50 samples.

Results

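The brain of medaka (Oryzias latipes) at the autumn equinox was compared with the brain at the spring equinox. Libraries labelled September (2015, 2016 and 2017, 6 libraries from 3 dates) were compared with libraries labelled March (2016 and 2017, 4 libraries from 2 dates), 10 of the 50 libraries in the series. The fish lived outdoors under natural conditions in Okazaki, Japan, at 35.0 degrees north. A block of ventral telencephalon, hypothalamus and pituitary was taken at around 8 pm about once a month, with 2 libraries on each of 25 dates from September 2015 to September 2017, and RNA was sequenced as strand-specific libraries. Strain, sex, age, pooling of fish and any treatment besides the month are not given in the labels. A p-value here measures only the spread between dates.

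Day length was matched within less than an hour. The September dates were 29 September 2015, 28 September 2016 and 19 September 2017, with calculated day lengths of 11.94, 11.94 and 12.30 hours. The March dates were 23 March 2016 and 16 March 2017, with 12.24 and 11.94 hours. Because the sun sets earlier by the clock in September, the tissue was taken 2.34, 2.34 and 2.1 hours after sunset in September and 1.91 and 2.02 hours after sunset in March. The protocol text starts the sampling in October 2015, while 2 libraries carry September 2015, and both of those end in the same replicate number in their titles. The direction of the September minus March differences was therefore also taken with September 2015 left out, once for all called genes together and singly for the other named genes. Where those 2 libraries are called replicate 1 and replicate 2, the numbers follow their order in the listing and not their titles. Water temperature, days of shortening against days of lengthening light and the season's history cannot be told apart in this comparison.

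Medaka breed under long days. Vertebrates that breed by season read day length through light-sensitive cells and the circadian clock, and in birds and mammals a long day raises thyrotropin in the pars tuberalis of the pituitary. That hormone acts on its receptor in the hypothalamus, where deiodinases set the local level of active thyroid hormone, which in turn acts on the reproductive axis. In the masu salmon the saccus vasculosus, an organ of the fish hypothalamus, carries the same genes. Both equinoxes present the same day length, so a gene that follows day length alone would stand at like levels on both.

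Values are FPKM, sequenced fragments scaled by transcript length and by library size. The level of a gene on a date is the mean of its 2 libraries on log2(FPKM + 1), written back as FPKM. A difference is September minus March on that log2 scale with its standard error, so it understates the change of genes near or under 1 FPKM. Adjusted p-values come from limma over 16493 genes with Benjamini-Hochberg adjustment, with a threshold of 0.05.

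Most genes listed for the labelled regions were present. Over the 10 libraries the pituitary hormone genes prl1 and gh averaged 2212 and 463 FPKM. The gene npy, listed for hypothalamic peptides, averaged 141, and dlx1, listed for telencephalon, 25.6. Of 15 pituitary hormone, 21 hypothalamic region and 17 telencephalon genes, 3, 5 and 1 averaged under 1 FPKM. How far a listed gene is confined to its region was not tested. The hindbrain gene hoxb1 averaged 0.0330 and the midbrain gene en2 0.102, and the rod photoreceptor gene rho 0.0360. Other genes listed for midbrain and hindbrain were present in every library, with means of 37.4 for zic1, 36.2 for zic2, 3.40 for tfap2b, 2.83 for pax7 and 2.68 for irx3, and 15 of the 21 genes of that list averaged under 1 FPKM. Of 9 genes listed for retina and pineal, 6 averaged under 1 FPKM. The other genes of that list, tph2, otx2 and rpe65, averaged 2.61, 1.86 and 1.36 and were present in every library. Whether tissue beyond the labelled regions was taken was not tested. FPKM sums of the 10 libraries lay between 297710 and 339238. Pearson correlations across genes, which are not independent replicates, were 0.981 to 0.983 within a date, 0.954 to 0.968 between years of the same month and 0.935 to 0.963 between September and March. Read totals were not used here, and the depth behind a value is unknown. As an alternative, a step in level at July 2016, between March 2016 and September 2016, was allowed for in the fit. Counts with this step term are given for the gene lists. How many genes show such a step was not tested.

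September and March brains differed in 716 of 16493 genes (4.34%), of which 416 (2.52%) were higher in September and 300 (1.82%) lower. The largest rise of all called genes was in a thyrotropin beta subunit gene, tshb-like, and the falls held a cryptochrome gene and 2 histone demethylase genes. The median size of a called difference was 0.74 on the log2 scale, and 137 genes differed at least 2-fold, 64 of them higher and 73 lower. In all 716 the date values did not overlap. That in itself is common, since 41.3% of all tested genes had no overlap between 3 and 2 dates. In 681 of the 716 the 6 and 4 single library values did not overlap either, against 19.0% of all tested genes. These same libraries made the calls, so a share above that of all genes follows in part from the selection. All 716 kept their sign with September 2015 left out, which the lack of overlap between dates fixes in advance. Of the 716, 585 were still called among 845 (5.12%). The split between higher and lower rests on the scaling. It was 450 and 529 with quantile normalization and 400 and 467 with median ratio scaling, under which the median difference of all genes moved from 0.052 to 0.003 on the log2 scale.

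The calls lean on having both March dates. Without March 2016, 18 genes were called higher and 35 lower, and without March 2017, 23 and 37. Without September 2016 the counts were 185 and 119, and without September 2017 they were 55 and 82. In simulated data with this design a 2-fold change was called in 73.5% of changed genes and a 1.5-fold change in 18%. Most 1.5-fold changes were thus missed there. In that setting 200 genes were changed and the others had no difference between these months. Recovery may differ in the real data, where 3527 genes had an unadjusted p under 0.05. Of all 716 called genes, 137 were also called when the 5 dates were fitted alone. Of the 68 called genes that the naming rule takes in, which favours large differences and small p-values, 30 were. Without the filter on low values 13 of the 68 were not called, namely the B-cell lymphoma 6 homolog gene (LOC101157565), a histone H2A-like gene, cathepsin D, cd59, ddx5, dnaja1, ebp, gatm, hsf1, hsp90ab1, lpcat3, rgs5 and six3.

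Of the pituitary hormones, both thyrotropin beta subunit genes were several times higher in September. The gene tshb-like (LOC101171658), annotated as thyrotropin subunit beta-like, stood at 66.2, 47.4 and 129 FPKM on the 3 September dates and at 9.08 and 11.9 on the 2 March dates. All 6 September libraries lay above all 4 March libraries, with 37.96 the lowest in September and 15.73 the highest in March. The difference was 2.72 ± 0.42 on the log2 scale (adjusted p = 0.00274), and 2.80 with September 2015 left out (adjusted p = 0.00467). Among the 25 dates September 2017 was the highest of all for this gene, and March 2016 and March 2017 were the lowest and the next to lowest. High levels were not confined to September. July and August stood at 77.3 and 92.4 FPKM in 2016, both above September 2016, and at 68.9 and 118 in 2017. Without March 2016 the adjusted p was 0.0546.

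The second gene, tshb (LOC105354380), annotated as thyrotropin subunit beta, stood at 4.24, 12.8 and 2.89 FPKM in September and at 0.300 and 0.399 in March. It was high in a short season. It reached its highest level of the series, 19.8 FPKM, in October 2015, and rose from 1.08 FPKM in August 2016 to 12.8 in September 2016, 9.90 in October 2016 and 1.15 in November 2016. The difference was 2.28 ± 0.44 (adjusted p = 0.0110) and 2.44 without September 2015 (adjusted p = 0.0127), and no library of one month overlapped the other. Without March 2016 or March 2017 the adjusted p was 0.117 and 0.0962. How the authors' counting divided reads between the 2 thyrotropin genes is not known. In a block of mixed tissue, fewer cells of a type and less RNA per cell cannot be told apart.

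**Figure D1:**
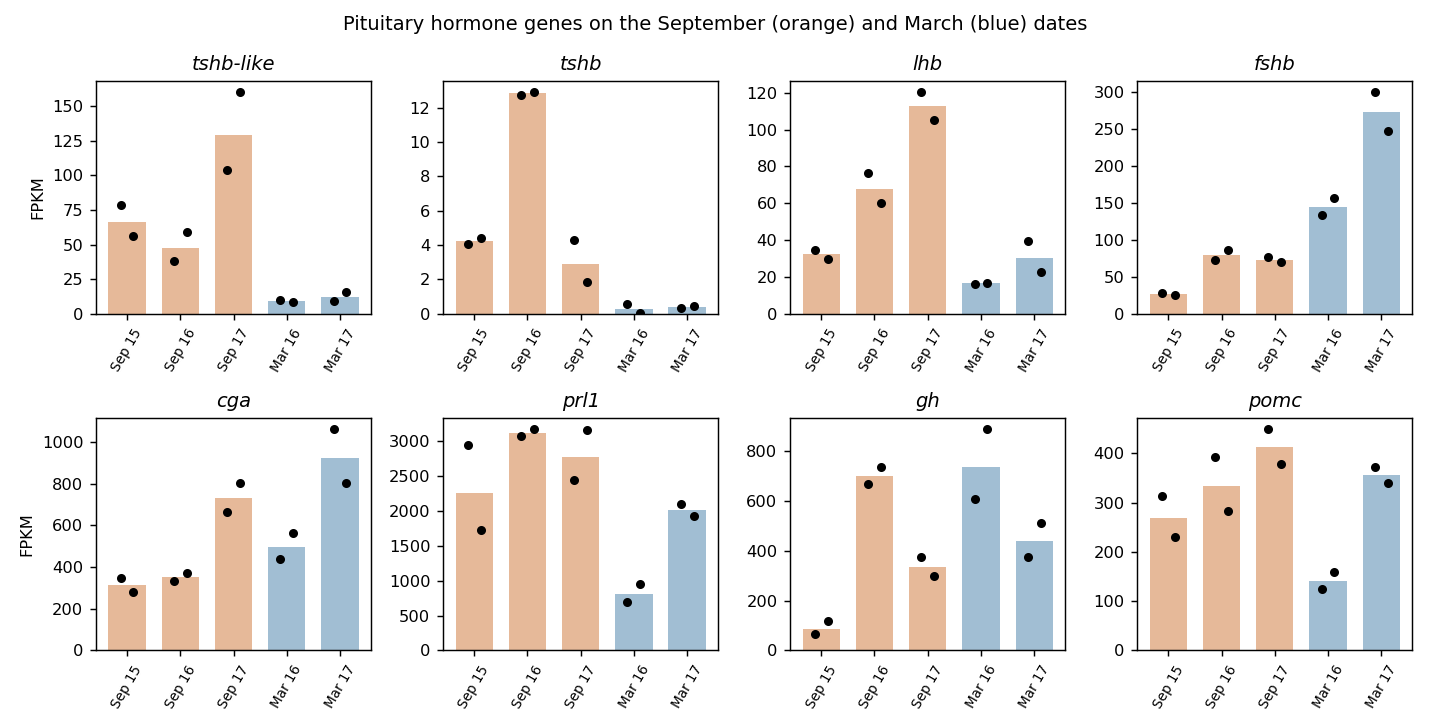
FPKM of 8 pituitary hormone genes on the 3 September dates (orange bars) and the 2 March dates (blue bars). Bars are date levels and points are the 2 libraries of each date; both thyrotropin beta genes are high on all September dates and low on both March dates, while gh and pomc overlap between the months.

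The gonadotropin beta subunits went in opposite directions, and neither passed. Luteinizing hormone beta, lhb, stood at 32.2, 67.8 and 113 FPKM in September and 16.6 and 30.0 in March. Its date values did not overlap, but the difference of 1.45 ± 0.50 did not pass (adjusted p = 0.102). With September 2015 left out it did (1.92, adjusted p = 0.0361). Follicle-stimulating hormone beta, fshb, stood at 26.9, 79.7 and 73.1 FPKM in September and 145 and 273 in March, so that all March libraries lay above all September ones. Its difference of -1.86 ± 0.62 had an adjusted p of 0.0899, of 0.227 without September 2015 (-1.37), and of 0.00816 with a step term at July 2016.

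The alpha subunit cga, which thyrotropin and both gonadotropins share, stood at 313, 353 and 729 FPKM in September and 498 and 925 in March. Its values overlapped and did not pass (-0.65 ± 0.36, adjusted p = 0.308). Prolactin, prl1, which acts in water and salt balance in fish, stood at 2252, 3113 and 2767 FPKM in September and 809 and 2004 in March. September lay above March on every date, and the difference of 1.08 ± 0.41 did not pass (adjusted p = 0.131) except with quantile normalization (1.16, adjusted p = 0.0348).

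Growth hormone, gh, stood at 86.9, 699 and 334 FPKM against 732 and 437 (-1.05 ± 0.71, adjusted p = 0.425). September 2015 was its lowest date of the whole series. Somatolactin, smtl, stood at 181, 47.5 and 206 FPKM against 44.2 and 121 (0.72 ± 0.64, adjusted p = 0.563). The stress and pigment hormone precursor pomc stood at 269, 334 and 412 FPKM against 141 and 355 (0.57 ± 0.40, adjusted p = 0.436). In these 3 genes the months overlapped. Without September 2015 the difference was -0.42 for cga, 1.2 for prl1, -0.23 for gh, 0.43 for smtl and 0.73 for pomc, each with the same sign as with it.

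Of 12 pituitary hormone genes tested, 2 rose in September and none fell, beside 2.52% and 1.82% of all genes, and 10 did not pass. The median difference of the 12 was 0.52 on the log2 scale, against 0.052 over all genes. Of 9 genes of pituitary identity, such as pou1f1 and pitx1, none passed, where 4.34% of all genes were called. Of the 9, 2 had an unadjusted p under 0.05, as did 3527 of all 16493 genes. With September 2015 left out 2 of these 9 were called higher, one of them pou1f1 (0.77, adjusted p = 0.0423). In that fit 5.12% of all genes were called in either direction.

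Behind the hormone, the genes that receive and convert the thyroid signal did not pass in either direction. The thyrotropin receptor tshr (LOC101170361) stood at 2.34, 4.19 and 3.31 FPKM in September and 3.27 and 4.13 in March (-0.15 ± 0.25, adjusted p = 0.781), and its sign turned without September 2015 (0.02). The deiodinase dio2, which activates thyroid hormone, stood at 5.52, 5.63 and 2.82 FPKM against 3.33 and 4.47 (0.17 ± 0.36). The inactivating deiodinase dio3 stood at 6.08, 2.63 and 6.53 FPKM against 5.52 and 2.68 (0.24 ± 0.38). Without September 2015 the deiodinases gave 0.048 and 0.093. In all 3 genes September and March dates overlapped, and the adjusted p of both deiodinases was over 0.7.

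Across 23 photoperiod and thyroid hormone genes, none was called, 4 had an unadjusted p under 0.05, and the median difference was 0.11. Over all 16493 genes, 4.34% were called, 3527 had an unadjusted p under 0.05, and the median difference was 0.052. The receptor thrb came nearest, at 20.9 FPKM against 15.4 as group levels (0.42 ± 0.13, adjusted p = 0.0738, and 0.49 without September 2015). With the step term 3 of the 23 were called higher and 1 lower, among them thrb (adjusted p = 0.0264). In that fit 11.6% of all genes were called. Of 9 non-visual opsin genes, which code for light receptors outside the eye, none was called and none had an unadjusted p under 0.05. The melanopsin gene opn4a (LOC101165418) stood at 1.17, 1.09 and 1.30 FPKM against 1.26 and 1.92 (-0.23 with and without September 2015).

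Genes of the reproductive axis in the brain were also without a call. Brain aromatase, cyp19b, which makes estrogen from androgen, stood at 112, 98.7 and 180 FPKM in September and 161 and 273 in March (-0.73 ± 0.32, adjusted p = 0.191). The months overlapped for this gene at September 2017. Gonadotropin-releasing hormone, gnrh1, stood at 5.46, 3.30 and 6.29 FPKM against 3.74 and 2.46 (0.54 ± 0.53, adjusted p = 0.607). The kisspeptin gene kiss-2 stood at 3.68, 6.66 and 3.35 FPKM against 5.20 and 6.15 (-0.31 ± 0.42, adjusted p = 0.733). Without September 2015 these differences were -0.65 for cyp19b, 0.47 for gnrh1 and -0.21 for kiss-2. Of 20 sex steroid genes none was called, and 7 had an unadjusted p under 0.05. Of all 16493 genes, 4.34% were called and 3527 had an unadjusted p under 0.05. Without September 2015 1 of the 20 was called higher, where 5.12% of all genes were called.

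Where 4.34% of all genes were called, 1 of 50 hypothalamic neuropeptide genes (2.0%) was. It was crh, corticotropin-releasing hormone, the head of the stress axis, at 29.3, 26.5 and 33.7 FPKM in September and 19.1 and 14.9 in March (0.78 ± 0.20, adjusted p = 0.0354). Its call was lost without September 2015 (0.79, adjusted p = 0.0518). The adjusted p was 0.121 without March 2016, 0.0544 without September 2016, 0.291 without March 2017 and 0.133 without September 2017. The median difference of the 50 genes was -0.12.

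Clock genes differed in both directions at this 1 hour of the evening. Of 36 tested, 4 were higher in September and 4 lower, which is 22.2% against 4.34% of all genes, and 28 did not pass. The median difference was -0.40, with 9 genes higher on every September date (25.0% of all genes were) and 15 lower on every one (16.3% of all genes). The share higher on every date was thus that of all genes. With September 2015 left out 4 were called higher and 10 lower, beside 449 and 396 of all 16493 genes. With the step term 6 were called higher and 12 lower, beside 1253 and 653 of all. On the 5 dates alone 1 was called in each direction, beside 84 and 77 of all.

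Cryptochromes, which repress the clock's activators, held the 2 largest differences of the 36 listed genes. The copy cry1 (LOC101160902) stood at 2.96, 0.570 and 0.365 FPKM in September and at 22.6 and 30.0 in March. No September library was over 3.23 FPKM and no March library under 19.98. The difference was -3.73 ± 0.49 (adjusted p = 0.00117), -4.21 without September 2015, and this call held with any 1 date left out. The copy cry1 (LOC101164536) went the other way, with 34.2, 72.8 and 67.7 FPKM against 16.6 and 16.8 (1.67 ± 0.31, adjusted p = 0.00904). Without September 2015 its difference was 2.01, and without March 2016 or March 2017 its adjusted p was 0.0926 and 0.0914. For both copies September 2015 was the September date nearest to March.

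The other 2 cry1 copies were lower in September on every date but did not pass. LOC101167667 stood at 44.0, 31.9 and 31.5 FPKM against 57.7 and 53.3 (-0.63 ± 0.19, adjusted p = 0.0617), and LOC101174986 at 0.781, 0.492 and 1.11 against 3.17 and 2.44 (-1.09 ± 0.39, adjusted p = 0.111). The first passed without September 2015 (-0.79, adjusted p = 0.0304) and with quantile normalization (0.0426), and both passed with the step term (0.0379 and 0.0459). Copies of 1 gene may share reads, so their single values carry that uncertainty.

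**Figure D2:**
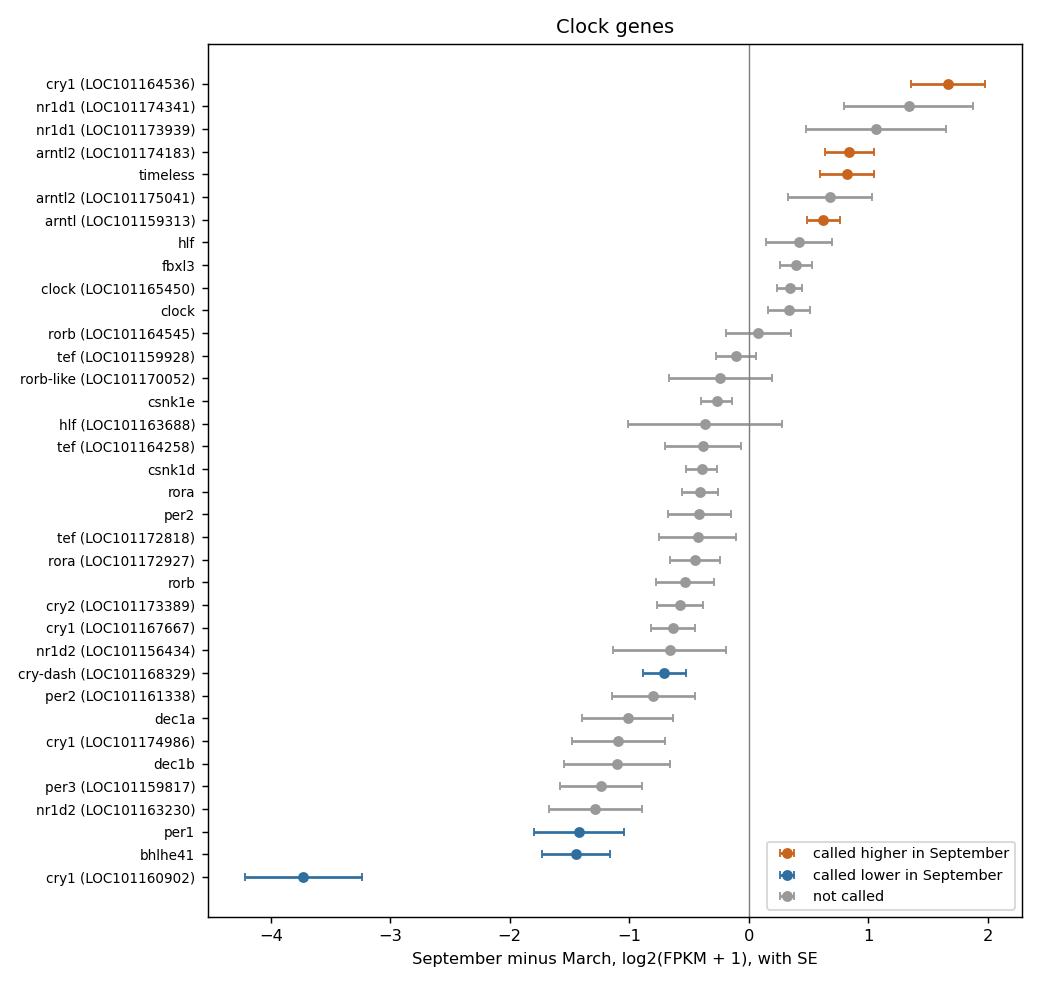
September minus March on log2(FPKM + 1), with standard errors, for the 36 clock genes tested. Orange and blue points are the 4 genes called higher and the 4 called lower in September; the 2 cry1 copies LOC101160902 and LOC101164536 lie at the opposite ends.

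Of the activator side, arntl (LOC101159313), the partner of CLOCK also known as BMAL1, stood at 29.3, 27.0 and 31.0 FPKM in September and 18.7 and 18.3 in March (0.63 ± 0.14, adjusted p = 0.0221). Every September date lay above both March dates. Without March 2016, March 2017 or September 2017 its adjusted p was 0.143, 0.160 and 0.0881. The repressor bhlhe41, also called DEC2, stood at 41.5, 15.4 and 18.0 FPKM against 63.1 and 63.6 (-1.44 ± 0.28, adjusted p = 0.0112). Its September dates all lay below March, with September 2015 between the other dates and March. Without March 2016, March 2017 or September 2017 its adjusted p was 0.110, 0.105 and 0.0624.

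The remaining called clock genes, named after their values were seen, were arntl2 (LOC101174183, 0.84) and timeless (0.82), both higher in September, and per1 (-1.42) and cry-dash (LOC101168329, -0.71), both lower. Their adjusted p-values lay between 0.0316 and 0.0495. The rev-erb gene nr1d1, which represses arntl, has copies that did not pass. LOC101174341 stood at 109, 68.3 and 35.2 FPKM against 20.5 and 29.7 (1.34 ± 0.54, adjusted p = 0.159) and LOC101173939 at 21.8, 15.5 and 7.48 against 4.75 and 7.6 (1.07 ± 0.58, adjusted p = 0.309). The period genes per2 (4.73, 3.45 and 4.65 against 6.12 and 5.85 FPKM) and per2 LOC101161338 (17.4, 13.6 and 10.0 against 21.4 and 26.7) were lower on every September date and did not pass (adjusted p = 0.392 and 0.196). Leaving out September 2015 gave 0.96 for nr1d1 LOC101174341 and 0.75 for LOC101173939, -0.48 for per2 and -0.98 for per2 LOC101161338, and -1.09 for cry1 LOC101174986.

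**Figure D3:**
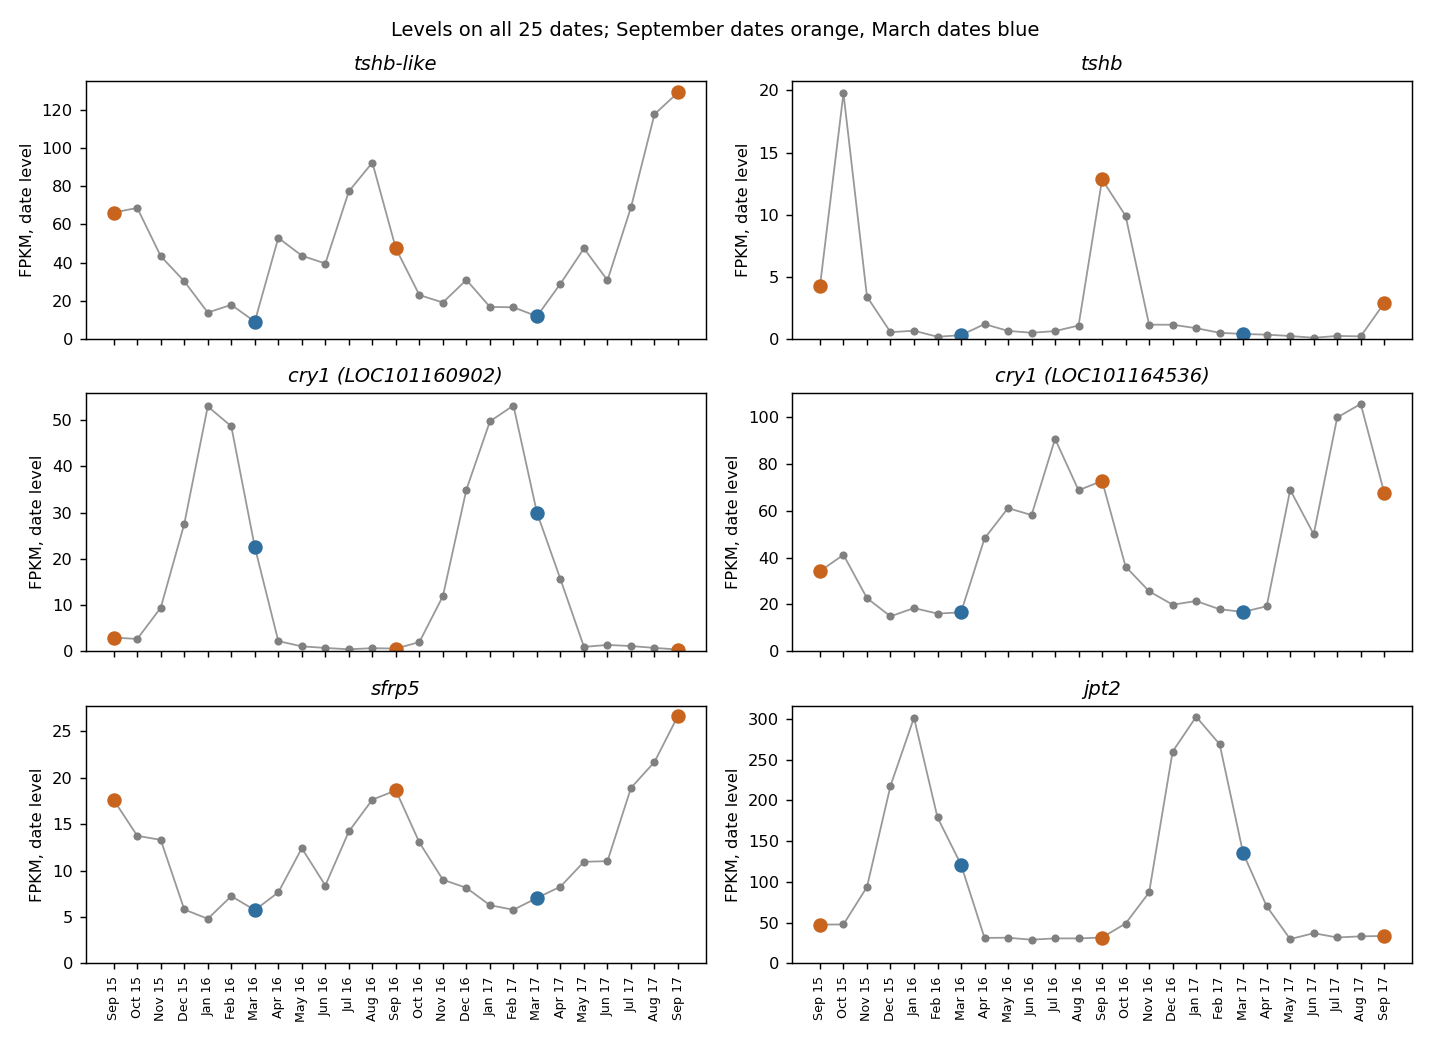
Date levels in FPKM of 6 genes over all 25 dates, with September dates in orange and March dates in blue. The 2 March dates of cry1 LOC101160902 and jpt2 sit on the falling side of a winter peak, while tshb and sfrp5 stood high around September.

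Chromatin genes held several of the largest falls. Of 50 in the list, 3 were lower in September, 2 higher and 45 did not pass, beside 1.82% lower and 2.52% higher of all genes, with a median difference of 0.072. The histone demethylase gene kdm6b (LOC101164833) stood at 79.7, 28.4 and 25.6 FPKM in September and 267 and 269 in March (-2.76 ± 0.58, adjusted p = 0.0166). A second demethylase gene, kdm7a, stood at 95.9, 34.3 and 21.4 FPKM against 216 and 178 (-2.21 ± 0.53, adjusted p = 0.0286). The Polycomb-associated gene rybp stood at 10.6, 5.15 and 3.70 FPKM against 39.5 and 42.3 (-2.59 ± 0.52, adjusted p = 0.0124). In all 3 the September 2015 level was the September level nearest to March, and the months did not overlap in any library.

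Both higher genes of that list were tet2, which oxidises methylated cytosine, at 9.70, 11.5 and 11.9 FPKM against 7.28 and 7.55 (0.51 ± 0.13, adjusted p = 0.0354), and prmt2, an arginine methyltransferase named after its value was seen (1.38 ± 0.36, adjusted p = 0.0406). The call of tet2 was lost with quantile normalization (adjusted p = 0.0736) and median ratio scaling (0.0928). Outside the list, dot1l, a histone H3 methyltransferase gene, stood at 63.9, 30.3 and 35.8 FPKM against 164 and 149 (-1.90 ± 0.41, adjusted p = 0.0177). With 1 of the other 4 dates left out, the highest adjusted p was 0.129 for kdm6b, 0.194 for kdm7a, 0.116 for rybp, 0.208 for tet2 and 0.143 for dot1l. March 2016 was the date left out in each case but rybp, where it was March 2017.

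Among the largest rises after thyrotropin was Her4 (LOC100049439), whose zebrafish namesake is a target of Notch signalling in neural progenitors. It stood at 51.0, 68.9 and 66.0 FPKM in September and 18.2 and 7.39 in March (2.30 ± 0.45, adjusted p = 0.0112, and 0.176 without March 2017). The gene cnot6l, a deadenylase of the CCR4-NOT complex that shortens mRNA tails, stood at 16.5, 31.9 and 23.7 FPKM against 6.07 and 5.48 (1.84 ± 0.22, adjusted p = 0.00117). A tubulin alpha chain gene (LOC101168810) stood at 306, 267 and 309 FPKM against 98.2 and 60.4 (1.92 ± 0.44, adjusted p = 0.0235). In these 3 genes every September library was above every March one.

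The Wnt inhibitor gene sfrp5 stood at 17.6, 18.6 and 26.6 FPKM against 5.74 and 7.05 (1.55 ± 0.20, adjusted p = 0.00117). A sodium- and chloride-dependent GABA transporter 2-like gene (LOC101161687), of the family that clears the inhibitory transmitter GABA, stood at 25.1, 38.9 and 45.7 FPKM against 9.94 and 11.3 (1.66 ± 0.22, adjusted p = 0.00117). The zinc finger repressor zeb1 stood at 21.6, 23.9 and 22.6 FPKM against 11.3 and 12.3 (0.89 ± 0.12, adjusted p = 0.00117), and uaca at 8.68, 8.16 and 9.17 against 4.95 and 4.60 (0.74 ± 0.10, adjusted p = 0.00144). In zeb1 and uaca the date values within a month lay close together, and these 2 reached a small p with a difference under 2-fold. The error in that p comes from the spread between years in all 12 calendar months. For cnot6l, sfrp5, the transporter gene, zeb1 and uaca the call held with any 1 date left out.

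Other large rises were less secure. A histone H2A-like gene (LOC101161532) stood at 2.52, 8.48 and 6.62 FPKM against 0.411 and 0.841 (1.97 ± 0.54, adjusted p = 0.0486), with 2 of 4 March libraries listed at 0 and overlapping library values. Of 2 histone H3 genes, LOC101165618 stood at 7.10, 13.0 and 20.3 FPKM against 2.97 and 2.44 (1.86 ± 0.42, adjusted p = 0.0234) and LOC101167724 at 18.0, 22.5 and 28.8 against 4.92 and 7.10 (1.77 ± 0.38, adjusted p = 0.0188). Histone genes come in near-identical copies, so their reads may be split between copies and the single values are uncertain. How fully poly-T selection of the RNA captured histone transcripts is also unknown. The gene LOC101155558, annotated as interferon alpha-inducible protein 27-like protein 2, stood at 49.2, 29.0 and 75.4 FPKM against 16.0 and 11.6 (1.73 ± 0.43, adjusted p = 0.0312, and 0.0521 without September 2015 replicate 1). With 1 of the other 4 dates left out the highest adjusted p of these 4 genes was 0.261, 0.175, 0.177 and 0.232, and 0.225 for the tubulin gene. The H2A-like gene lost its call without any of 5 single libraries, up to 0.127 without March 2017 replicate 2, and with a pseudocount of 5 (0.0920), as LOC101165618 did with one of 0.1 (0.126).

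On the lower side, jpt2, Jupiter microtubule associated homolog 2, stood at 47.6, 31.9 and 33.8 FPKM in September and 121 and 135 in March (-1.76 ± 0.25, adjusted p = 0.00138). The gene LOC105353597, annotated as HERV-H LTR-associating protein 2, a member of an immune checkpoint family, stood at 5.30, 1.65 and 2.29 FPKM against 17.6 and 12.2 (-2.04 ± 0.30, adjusted p = 0.00190). In both genes, every September library lay below every March library.

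The microtubule-associated gene slain1 stood at 3.55, 3.76 and 3.45 FPKM against 11.0 and 22.0 (-1.86 ± 0.30, adjusted p = 0.00386). The matrix protein gene matn3 stood at 1.16, 0.785 and 0.932 FPKM against 4.27 and 7.88 (-1.81 ± 0.33, adjusted p = 0.00770), and the testicular acid phosphatase homolog gene (LOC101160600) at 1.58, 1.10 and 1.16 against 5.97 and 7.41 (-1.75 ± 0.23, adjusted p = 0.00117). Of the falls with the smallest p, plekhm2, an adaptor between lysosomes and kinesin, stood at 11.0, 8.76 and 10.1 FPKM against 29.2 and 34.0 (-1.58 ± 0.19). The receptor gene edar stood at 1.35, 0.855 and 0.818 FPKM against 4.29 and 6.66 (-1.68 ± 0.22), and GPR155 (LOC101175018) at 15.7, 12.4 and 13.1 against 37.0 and 31.9 (-1.27 ± 0.17). Each of these last 3 had an adjusted p of 0.00117. With a March date left out the adjusted p was 0.0941 for slain1 and 0.133 for matn3 (March 2017), and 0.0524 for LOC105353597 (March 2016).

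One fall rests on single libraries. The cathepsin D gene LOC101161712, a lysosomal protease, has the largest fitted difference in the table of named genes (-3.75 ± 0.97, adjusted p = 0.0385). Its September libraries held 0 and 2.62 FPKM in 2015, 46.07 and 0 in 2016, and 58.13 and 0 in 2017, while its March libraries held 45.61, 78.99, 64.25 and 61.64. Of the September libraries, 2 thus stood within the March range and 3 were listed at 0, as were 10 of all 50 libraries. The date levels of 0.903, 5.86 and 6.69 FPKM in September hide this split. The call was lost without September 2015 (-3.10, adjusted p = 0.0892), with a pseudocount of 0.1 (0.0570), with the date as a random effect (0.361), without September 2016 replicate 2 (0.173) or September 2017 replicate 2 (0.188), and without any one of the other 4 dates (0.0642 to 0.206).

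**Figure D4:**
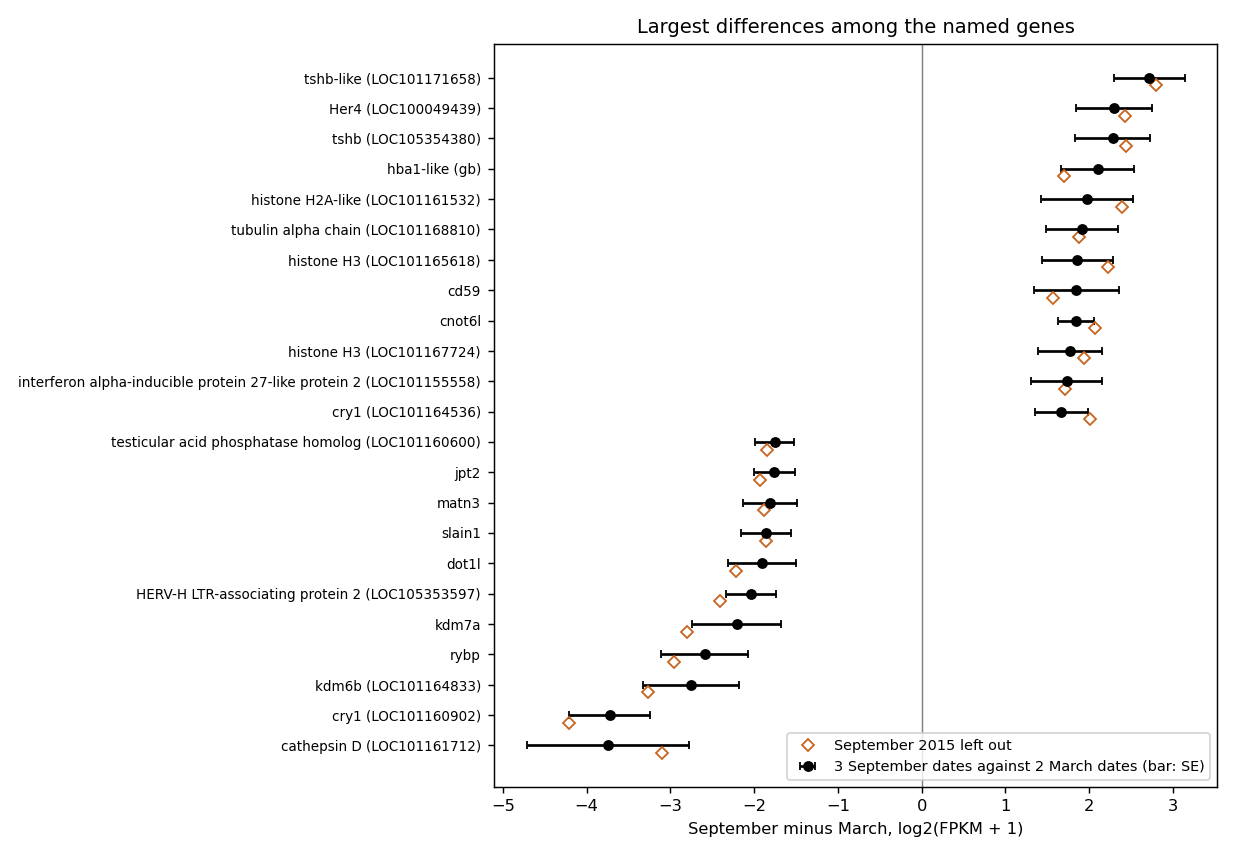
September minus March on log2(FPKM + 1) for 23 named genes with the largest differences. Black points with standard errors use all 3 September dates and open diamonds leave out September 2015; every diamond lies on the same side of 0 as its point.

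Of 20 genes of creatine and inositol metabolism, 2 were higher in September and 2 lower, and 16 did not pass, where 2.52% and 1.82% of all genes were called. The creatine-forming enzyme gamt stood at 13.8, 20.0 and 19.4 FPKM against 5.35 and 7.25 (1.35 ± 0.23, adjusted p = 0.00573), while gatm, which makes its substrate, stood at 11.0, 7.04 and 6.47 against 17.5 and 24.8 (-1.28 ± 0.35, adjusted p = 0.0468). The mitochondrial creatine kinase ckmt1 (LOC101164721) stood at 60.7, 60.6 and 63.6 FPKM against 47.4 and 39.3 (0.50 ± 0.12, adjusted p = 0.0264). The inositol transporter slc5a3 stood at 17.8, 8.11 and 9.99 FPKM against 35.4 and 41.1 (-1.66 ± 0.36, adjusted p = 0.0194). None of the 4 overlapped between the months. Over the other 4 dates, each left out in turn, the highest adjusted p was 0.107 for gamt, 0.314 for gatm, 0.271 for ckmt1 and 0.161 for slc5a3. The call of gatm was lost without any of 3 single September libraries (0.0530 to 0.0569) and with a pseudocount of 0.1 (0.0660).

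Of 32 iron and antioxidant genes, 3 were higher in September, 1 lower and 28 did not pass, beside 2.52% higher and 1.82% lower of all genes. The ferritin gene ftm (LOC101170845), an iron store, stood at 116, 80.7 and 98.2 FPKM against 183 and 224 (-1.05 ± 0.19, adjusted p = 0.00865). The peroxide-removing enzymes gpx3 (52.9, 50.4 and 63.5 against 30.1 and 29.5 FPKM, 0.87 ± 0.21, adjusted p = 0.0279) and catalase, cat (36.7, 40.7 and 46.2 against 26.4 and 25.1 FPKM, 0.65 ± 0.16, adjusted p = 0.0315), were higher. So was nfe2l2, a regulator of antioxidant genes (0.54 ± 0.14, adjusted p = 0.0427), whose call was lost without September 2015 (0.0809), without September 2017 replicate 2 (0.0648) and under both other scalings (0.0558 and 0.0665). The highest adjusted p with 1 of the other 4 dates left out was 0.127 for ftm, 0.179 for gpx3, 0.206 for cat and 0.220 for nfe2l2.

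Of 46 chaperone and cold-response genes, 2 were higher in September and 1 lower, near the 2.52% and 1.82% of all genes. The heat shock protein gene hsp90ab1 stood at 751, 920 and 911 FPKM against 523 and 479 (0.77 ± 0.20, adjusted p = 0.0373). The heat shock regulator hsf1 stood at 27.6, 44.9 and 48.6 FPKM against 19.1 and 18.3 (1.03 ± 0.27, adjusted p = 0.0428). The cochaperone gene dnaja1 (LOC101162427) was lower (-0.44 ± 0.12, adjusted p = 0.0496), and 5 of 10 single libraries ended its call when left out (0.0508 to 0.0651). The cold-inducible RNA-binding gene cirbp stood at 928, 1180 and 942 FPKM against 823 and 616 and did not pass (0.50 ± 0.23, adjusted p = 0.220, and 0.56 without September 2015). Leaving out each of the other 4 dates gave adjusted p-values of at most 0.237 for hsp90ab1, 0.229 for hsf1 and 0.254 for dnaja1.

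Splicing genes that were called were all higher in September, 4 of 45 against 2.52% of all genes, with a median difference of 0.19. The splicing factor srsf3 (LOC101167349) stood at 31.0, 37.2 and 49.6 FPKM against 19.2 and 15.2 (1.13 ± 0.20, adjusted p = 0.00770, and 0.117 without March 2017). The others were luc7l (0.66 ± 0.15, adjusted p = 0.0233), the helicase gene ddx5 (LOC101160075, 0.75 ± 0.20, adjusted p = 0.0394) and srsf9 (LOC101164733), which differed by 0.40 ± 0.11 (adjusted p = 0.0454). In this list 21 members were higher on all September dates, which is 46.7% against 25.0% of all genes. With quantile normalization 5 were called higher and 1 lower, beside 450 and 529 of all 16493 genes. With median ratio scaling 5 were called higher and 2 lower, beside 400 and 467 of all. In fits without 1 of the other 4 dates the highest adjusted p was 0.229 for luc7l, 0.245 for ddx5 and 0.339 for srsf9. The call of srsf9 was lost with quantile normalization (0.0539) and without any of 3 single libraries (0.0502 to 0.0742) and that of ddx5 without September 2015 replicate 2 (0.0586).

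Genes of dividing cells were called in 1 direction. Of 13 tested among 24 members, 5 were higher in September, none was lower and 8 did not pass, beside 2.52% higher and 1.82% lower of all genes, with a median difference of 0.53. The kinetochore gene cdca8 stood at 3.81, 3.71 and 5.35 FPKM against 1.30 and 1.66 (1.08 ± 0.18, adjusted p = 0.00413). The replication clamp gene pcna stood at 20.4, 18.4 and 27.0 FPKM against 10.7 and 11.3 (0.92 ± 0.19, adjusted p = 0.0143). The nucleotide-supplying enzyme rrm1 (LOC101156995) stood at 5.11, 3.84 and 6.64 FPKM against 2.89 and 2.72 (0.68 ± 0.16, adjusted p = 0.0279), and the mitotic kinase cdk1 at 4.43, 2.63 and 4.91 against 1.28 and 1.2 (1.12 ± 0.28, adjusted p = 0.0331). The fifth, the spindle motor gene kif11, was named after its value was seen (0.81, adjusted p = 0.0420). Without September 2015, 3 of the 13 were called, beside 5.12% of all genes, and cdk1 was not (adjusted p = 0.0613). On the 5 dates alone none was called, where 84 of all 16493 genes were called higher and 77 lower. The highest adjusted p with 1 of the other 4 dates left out was 0.0812 for cdca8, 0.132 for pcna, 0.184 for rrm1 and 0.193 for cdk1.

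Oligodendrocyte genes, which belong to the cells that wrap axons in myelin, were higher where called. Of 22 tested, 4 were higher in September and none lower, beside 2.52% and 1.82% of all genes, with a median difference of 0.38. The lineage factor olig1 stood at 3.72, 4.08 and 4.92 FPKM against 1.15 and 1.37 (1.21 ± 0.20, adjusted p = 0.00476), and gpr17, a receptor of immature oligodendrocytes, at 6.19, 3.07 and 7.19 against 1.57 and 1.52 (1.29 ± 0.28, adjusted p = 0.0194). The enzyme cnp stood at 16.3, 11.7 and 16.4 FPKM against 8.79 and 9.16 (0.65 ± 0.16, adjusted p = 0.0288). The complement inhibitor cd59, listed with them, stood at 404, 177 and 285 FPKM against 86.2 and 65.5 (1.85 ± 0.51, adjusted p = 0.0476). The calls of cnp and cd59 were lost without September 2015 (0.0599 and 0.107), and that of cd59 also without any of 4 single libraries (0.0527 to 0.0600) and with a pseudocount of 0.1 (0.0505). The major myelin gene mbp-like (LOC101173447) differed by 0.78 ± 0.45 and did not pass (adjusted p = 0.329, and 0.55 without September 2015). With the step term 9 of the 22 were called, all higher, where 11.6% of all genes were called. With 1 of the other 4 dates left out the highest adjusted p was 0.0786 for olig1, 0.147 for gpr17, 0.191 for cnp and 0.276 for cd59.

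Of 11 erythrocyte genes 1 was called, higher in September, beside 2.52% higher of all genes. The globin gene hba1-like, listed under the symbol gb, stood at 2183, 605 and 1477 FPKM in September and 246 and 343 in March (2.1 ± 0.43, adjusted p = 0.0149, and 1.70 without September 2015, adjusted p = 0.0336). All September libraries were above all March libraries. Its adjusted p was 0.155, 0.0828 and 0.0658 without March 2016, March 2017 or September 2017. A second globin gene, hbb1-like, differed by 1.53 ± 0.44 and did not pass (adjusted p = 0.0558, and 1.18 without September 2015). Of the 11, 3 were higher on every September date and 2 lower on every one, beside 25.0% and 16.3% of all genes. The summed level of the list ran from 1271 to 5523 FPKM in September and from 842 to 1318 in March, with 1 of 14 members listed at 0 in all 10 libraries. The part of blood in the other differences was not tested. Near-identical globin copies may share reads.

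Other cell type lists had at most 1 call each. Of all 16493 genes, 4.34% were called and 3527 had an unadjusted p under 0.05. Of 19 radial glia and astroglia genes, a glutamine synthetase copy glul (LOC101163918) was higher (5.64, 8.82 and 8.73 against 3.55 and 3.53 FPKM, 0.92 ± 0.17, adjusted p = 0.00817). Of 18 microglia genes, apoeb (LOC101161673), a lipid carrier, was lower (217, 218 and 192 against 383 and 451 FPKM, -1.0 ± 0.19, adjusted p = 0.00995). Of 29 neuron genes, gap43, a protein of growing axons, was higher (0.63 ± 0.16, adjusted p = 0.0371), and of 21 endothelium and pericyte genes rgs5 (LOC101158097) was lower (-0.93 ± 0.24, adjusted p = 0.0394). Of 16 hypothalamic region genes, six3 was higher (0.67 ± 0.18, adjusted p = 0.0455), but not with quantile normalization (0.0745) or median ratio scaling (0.0862). None of 16 telencephalon, 6 midbrain and hindbrain, 17 meninges, 9 cilia or 3 retina and pineal genes was called, with 2, 0, 5, 2 and 0 at an unadjusted p under 0.05.

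With 1 of the other 4 dates left out the highest adjusted p was 0.0858 for glul, 0.132 for apoeb, 0.217 for gap43, 0.322 for rgs5 and 0.306 for six3. The call of gap43 was also lost without March 2016 replicate 1 (0.0515), and that of six3 without September 2015 replicate 1 (0.0557).

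Single calls came from several more lists. Over all 16493 genes, 4.34% were called and 3527 had an unadjusted p under 0.05. The immediate early gene klf2 was higher (10.4, 11.6 and 11.2 against 6.6 and 4.23 FPKM, 0.93 ± 0.23, adjusted p = 0.0310), 1 of 34 in its list. The sodium channel gene scn8a (LOC101174811), which carries action potentials, was lower (16.9, 14.4 and 12.7 against 31.2 and 23.6 FPKM, -0.85 ± 0.16, adjusted p = 0.00865), while the GABA receptor subunit gabra2 (LOC101158539) was higher (0.52 ± 0.12, adjusted p = 0.0286), the 2 calls among 47 synapse and channel genes. The sterol enzyme ebp was higher (1.14 ± 0.31, adjusted p = 0.0477) and the phospholipid enzyme lpcat3 lower (-0.53 ± 0.15, adjusted p = 0.0476), each narrowly. No gene was called among 69 cytosolic ribosomal, 55 oxidative phosphorylation, 31 proteasome, 34 growth and insulin, 32 hypoxia and glycolysis and 18 interferon genes, where 9, 3, 1, 4, 8 and 7 had an unadjusted p under 0.05. Quantile normalization called 1 ribosomal gene higher, 2 hypoxia genes lower, 1 growth gene lower and 1 interferon gene in each direction. That scaling called 450 of all 16493 genes higher and 529 lower. Without September 2015, 2 hypoxia genes and 1 oxidative phosphorylation, 1 growth and 1 interferon gene were called lower, where 5.12% of all genes were called.

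Some of these calls end with 1 library or date. Leaving out each of the other 4 dates gave adjusted p-values up to 0.302 for klf2, 0.146 for scn8a, 0.286 for gabra2, 0.248 for ebp and 0.303 for lpcat3. The call of klf2 was lost without September 2016 replicate 2 (0.0536). Those of ebp and lpcat3 were lost without any of 5 and 4 single libraries, up to 0.0828 and 0.0834, and that of ebp also without September 2015 (0.0819). The call of gabra2 (LOC101158539) was lost with quantile normalization (0.0550) and median ratio scaling (0.0714).

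The equinox difference was set beside the difference between day-length extremes, June minus December, whose means use no September or March library. Both come from the same fit and share each gene's error, so calls in both are not independent. Time since sunset differed too. The tissue was taken 0.86 hours after sunset on both June dates and 3.25 and 3.29 hours after it in December. June and December differed in 2268 genes (13.8%), 1109 higher (6.72%) and 1159 lower (7.03%) in June. The part of time since sunset in these differences was not tested. Of the 716 genes called between equinoxes, 706 had the same sign between solstices (98.6%), against 76.5% of all tested genes, and 526 were called there in the same direction. Those 526 are 73.5% of the equinox calls and 23.2% of the solstice calls. No gene was called in opposite directions. The cry1 copy LOC101160902 differed by -3.73 between equinoxes and -4.0 between solstices, and the histone demethylase gene kdm6b by -2.76 and -2.26.

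Both thyrotropin beta genes were called between equinoxes and not between solstices, but the test of the difference did not pass for either. The gene tshb-like stood at 34.8 FPKM in June and 30.6 in December (0.18, adjusted p = 0.838), against an equinox difference of 2.72. For tshb the June and December levels were 0.280 and 0.819 FPKM (-0.51, adjusted p = 0.540), against 2.28. The equinox difference exceeded the solstice difference by 2.54 for tshb-like (adjusted p = 0.785) and by 2.79 for tshb (adjusted p = 0.701). Examples of the other genes called between equinoxes and not between solstices are sfrp5 (1.55 and 0.43, adjusted p = 0.223 in June against December) and hba1-like (2.1 and 0.31, adjusted p = 0.718).

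Just 1 of 16493 genes (0.00606%) had an equinox difference that differed from its solstice difference past the threshold. It was LOC101161242, annotated as trypsin-2-like, at 1.90, 2.03 and 1.37 FPKM in September, 0.870 and 1.14 in March, 0.208 in June and 4.20 in December. Its equinox difference was 0.46 (0.42 without September 2015) and its solstice difference -2.11 (difference between them 2.57, adjusted p = 0.00908). At an unadjusted p under 0.05 there were 609 genes. In simulated data this test recovered 34% of genes at a 2-fold and 85.5% at a 4-fold equinox difference with none between solstices. The next smallest p-values of higher equinox differences among genes with a descriptive name were those of pomc-like (LOC101164777, 1.76, adjusted p = 0.0917), LOC101161789, annotated as procollagen galactosyltransferase 2 (1.05, 0.246), LOC101157565, annotated as B-cell lymphoma 6 protein homolog (1.65, 0.471), and LOC101168119, annotated as protein tweety homolog 2-like (1.06, 0.491). Of these, LOC101157565 was called between equinoxes (0.91, adjusted p = 0.0373), at 7.62, 8.46 and 4.33 FPKM against 2.38 and 3.82, and its call was lost without September 2015 (0.0767), without March 2017 replicate 2 (0.067), without September 2017 replicate 1 (0.0529) and without March 2016, September 2016 or March 2017 (0.305, 0.112 and 0.0941). Among genes with a negative value, fshb was higher in March by 1.86 and in June by 1.37 (difference between them -3.22, adjusted p = 0.999), and the coagulation factor gene f13a1 had 1.95, 0.465 and 17.0 FPKM in September and 10.6 and 6.82 in March but 19.4 in June and 0.0323 in December (-5.47, adjusted p = 0.246). The equinox differences without September 2015 were 0.58 for pomc-like, 0.28 for LOC101161789, 0.43 for LOC101168119 and -0.89 for f13a1, each with the sign it had before. The gene LOC101175600, which has no descriptive name, was called between equinoxes (1.14, adjusted p = 0.0179) and had a larger equinox than solstice difference without passing (1.90, adjusted p = 0.246).

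**Figure D5:**
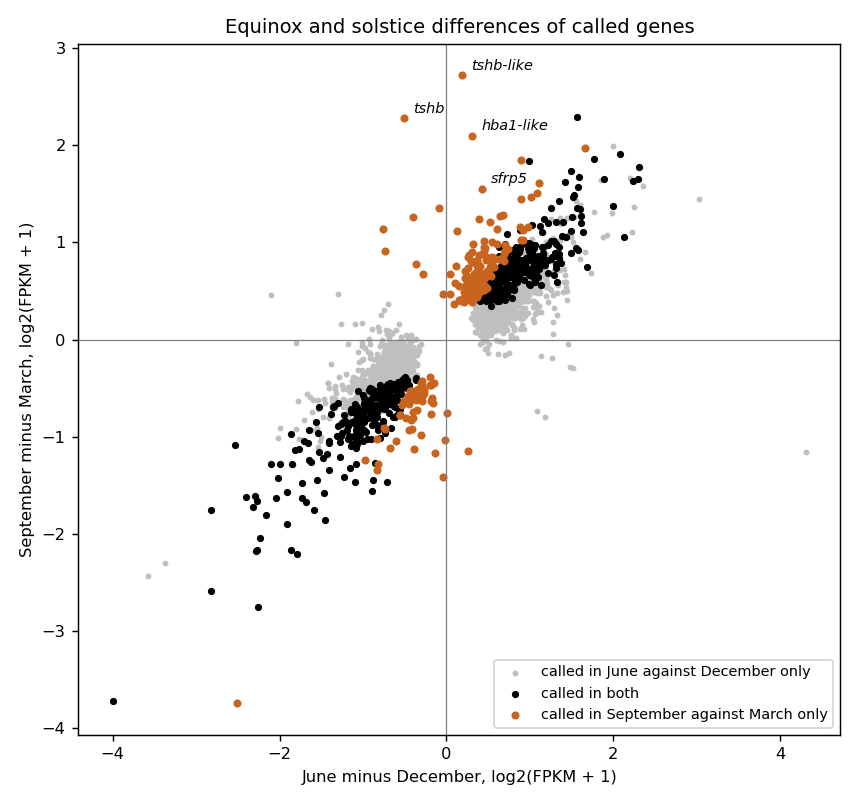
Each point is a gene called in at least 1 of the comparisons, with its June minus December difference across and its September minus March difference upward, both on log2(FPKM + 1). Most points lie in the lower left and upper right, and tshb-like, tshb, hba1-like and sfrp5 lie high above a small or negative June minus December difference.

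Both equinox cycles gave the same directions for the called genes. In the first, September 2015 was set against March 2016, both before July 2016. In the second, September 2016 was set against March 2017, both after July 2016. All 716 called genes had the same sign in both cycles, as did 11128 of all 16493. These dates are among those that made the calls. In the 716 the date values did not overlap, so the signs could not differ, and this is a description. The 2 cycles gave 2.74 and 1.91 for tshb-like, 2.01 and 3.31 for tshb, -2.57 and -4.30 for cry1 LOC101160902, and 1.46 and 1.29 for sfrp5. With the step term 1906 genes were called (11.6%), and all 716 were among them.

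The step term brought calls to lists that had none. It called 2 of 20 sex steroid, 3 of 69 cytosolic ribosomal, 4 of 55 oxidative phosphorylation and 2 of 16 telencephalon genes higher, 2 of 17 meninges genes lower, 3 interferon genes higher and 1 lower, 2 hypoxia and glycolysis genes higher and 1 lower, and 1 growth and insulin gene in each direction. In lists with calls it gave 7 proliferation genes higher, 9 splicing genes higher and 3 lower, 5 creatine and inositol genes higher and 3 lower, 4 chromatin genes in each direction, 4 synapse and channel genes higher and 2 lower, 3 erythrocyte genes higher and 3 chaperone genes higher and 1 lower. Among cell types it gave 4 radial glia and 3 hypothalamic region genes higher, 4 endothelium genes higher and 1 lower, 2 neuron genes higher and 1 lower, and 1 microglia gene in each direction. It also called fshb, thrb, cry1 LOC101167667, cry1 LOC101174986, hbb1-like and mbp-like, which did not pass without it. These shares stand beside 11.6% of all genes called with the step term.

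A test of the first cycle against the second called no gene (0.0%), with 337 at an unadjusted p under 0.05. It had 1 date on each side and recovered 0% of 2-fold and 61.5% of 4-fold changes in simulated data. Growth hormone gave -3.06 in the first cycle and 0.68 in the second (adjusted p over 0.9), and somatolactin 2.01 and -1.33 (adjusted p over 0.9). The gene nearest to the threshold was LOC101171112, annotated as C-C motif chemokine 20 (0.66 and -1.15, adjusted p = 0.0826). The circadian-associated transcriptional repressor gene LOC101172421 stood at 29.1, 4.38 and 0.853 FPKM in September and 28.4 and 36.3 in March. It gave 0.03 in the first cycle and -2.80 in the second, without passing the test between the cycles. Its difference over all dates did not pass (-2.31, adjusted p = 0.0953), and with September 2015 left out it did (-3.39, adjusted p = 0.00556). That of LOC101171112 was 0.14 with September 2015 and 0.10 without it.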

How the data were processed

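The authors deposited 1 table of FPKM values for 23455 genes in 50 libraries, made from strand-specific paired reads of poly-T selected, DNase-treated RNA per the labels' protocols. Bowtie2 2.2.5 and RSEM 1.2.12 are named in the submitters' processing notes, and the genome build is not given in the sources used here. FPKM already divides by library size, so composition affects every value. Values were checked for being whole multiples of a step, and 38.9% of 620793 values over 12714 genes lay within 10% of one. The step was taken from each gene's own lowest values, with no upper limit on FPKM. That check could therefore not show whether values follow whole reads. No read counts were recovered and no counting interval is given.

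From these values, log2(FPKM + 1) was averaged over the 2 libraries of a date, and 16493 genes, those averaging 1 FPKM or more across the 50 libraries, entered a limma fit (limma 3.58.1, R 4.3.3), with trended variances and 12 calendar-month means over the 25 dates (13 residual degrees of freedom). September minus March, June minus December and the difference between these were contrasts with Benjamini-Hochberg adjustment over 16493 genes. The first cycle was compared with the second in a fit with separate means for those dates. Simulated data with 200 changed genes were used to test the fits. Annotation was matched by gene ID to a RefSeq gene table (21908 of 23455 found).

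Genes are named by a rule: a set of pituitary, thyroid, clock and opsin genes whatever their result, the 12 largest called differences and 5 smallest p-values in each direction, up to 4 genes per list, and 5 per direction for the other tests. Some items the rule takes in are not reported here. Genes outside it are said to be named after their values were seen. The members, gene lists and rule were chosen with earlier results of these data known. Alternatives tried were other pseudocounts, filters and scalings, the 5 dates alone, September 2015 left out, a step term, libraries as separate samples, the date as a random effect, a replicate block and each library or date left out. No sequences are shown because none was used here.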

Additional observations from a re-analysis of the deposited data

Results flagged for a closer look

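In the named genes, each month's single libraries were checked for a highest or lowest value far from the rest of its group by Dixon's test. Of 208 groups looked at, 8 (3.85%) had such a library, and chance marks about 1 in 20 groups. Values are FPKM.

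Of the March libraries, kiss-2 stood at 7.13 in March 2017 replicate 2 against 5.1 to 5.3 in the other 3, and the globin gene hba1-like (gb) at 449.38 in March 2017 replicate 1 against 236.36 to 261.34. In March 2016 replicate 1, pomc-like (LOC101164777) was low at 1.09 against 1.51 to 1.6, slc5a3 at 29.39 against 40.57 to 42.51, and ftm (LOC101170845) at 155.6 against 215.57 to 229.8. Even the low March values of slc5a3 and ftm lay above every September library of those genes, and the high March value of hba1-like lay below every September library.

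Of the September libraries, edar stood at 1.7 in September 2015 replicate 2 against 0.74 to 1.04 in the other 5, still below every March library. The transcription elongation factor SPT5-like gene LOC111947903 stood at 2.95 in September 2016 replicate 1 against 1.03 to 1.37. The protocadherin alpha-C2-like gene LOC111948069 stood at 4.92 in September 2016 replicate 1 and was listed at 0 in the other 5. Neither of these last genes was called between the months.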

How the results depend on the processing

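With the values as deposited, 416 genes were higher in September and 300 lower. Pseudocounts of 0.1 and 5, both filters on low values, September 2015 left out and any 1 library left out (369 to 491 higher, 283 to 356 lower) kept each count within 1.5 times of that. The lower count was 529 with quantile normalization and 467 with median ratio scaling. The counts were 84 higher and 77 lower on the 5 dates alone, which leaves 3 residual degrees of freedom, and 1253 and 653 with a step term at July 2016. With 1 of the other 4 dates left out they ran from 18 to 185 higher and 35 to 119 lower. Libraries as separate samples gave 2654 and 1683, which treats the 2 libraries of a date as independent, and the date as a random effect gave 929 and 613. June against December gave 1832 higher with the step term, and the test of equinox against solstice differences gave 0 with the filter at 5 FPKM and 2 with the step term. Except where the construction is given, the cause was not tested.

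Of genes in the lists, 36 were called higher and 15 lower, beside 2.52% and 1.82% of all 16493 genes. The lower count was 25 with quantile normalization, 24 with median ratio scaling and 32 without September 2015. Over all genes those lower counts were 529, 467 and 396. The list counts were 9 and 8 on the 5 dates alone, beside 84 and 77 of all genes. With the step term they were 91 and 39, beside 1253 and 653 of all. The share of listed genes called was not computed, and these counts were not tested.

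Replicate numbers of different dates were not paired by the labels, and samples with the same number did not deviate together (correlations of -0.0142 to 0.0684 over 6 pairs of dates). A replicate block over single libraries, with September 2015 left out because its numbers are not distinct, gave 2449 higher and 1851 lower, and the same libraries with no block gave 2498 and 1869.

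Of the 68 called genes that the naming rule takes in, none changed sign under any alternative run. Where a date was left out no sign could turn, since the date values of these genes did not overlap. With September 2015 left out 60 were still called, with the step term 68, with median ratio scaling 63 and with quantile normalization 62. A pseudocount of 0.1 ended the calls of LOC101161712, LOC101165618, cd59, dnaja1, ebp, gatm and lpcat3, a pseudocount of 5 that of LOC101161532, and the date as a random effect those of LOC101155558, LOC101161532 and LOC101161712. For 15 genes some 1 library, and for 57 some 1 date other than September 2015, ended the call when left out. Signs turned only in genes that were not called. The thyrotropin receptor tshr (LOC101170361) gave 0.016 without September 2015, also in both fits over single libraries that leave that date out. LOC101170951 gave 0.35 with the step term. With 1 library or date left out, pomc ran from -0.093 to 1.24, dio3 from -0.17 to 0.65, LOC101171112 from -0.29 to 0.58, dhrs3 from -1.29 to 0.16, LOC105354644 from -0.87 to 0.30, LOC101163639 from -3.66 to 0.54, LOC101170951 from -3.39 to 2.24, LOC101170939 from -2.0 to 0.72, LOC111947903 from -3.11 to 0.21 and LOC111948069 from -1.88 to 0.43. The depth of the libraries is unknown, and with 3 dates against 2 differences under 2-fold were often missed in simulated data.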

Other observations

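Histone genes were gathered after their values were seen, so no test is given for them as a group. Of 66 tested, 12 were higher in September and 2 lower, beside 2.52% and 1.82% of all genes, and the median difference was 0.94 on the log2 scale, against 0.052 over all genes. The difference was positive in 58 of the 66, and in 44 every September date lay above both March dates, as in 25.0% of all genes. A histone H4 gene (LOC101170646) stood at 24.6, 27.9 and 31.9 FPKM in September and 9.80 and 7.87 in March (1.57 ± 0.35, adjusted p = 0.0223 with limma). The linker histone gene H1.0-B (LOC101162715) stood at 26.4, 24.6 and 34.2 FPKM against 9.54 and 7.57 (1.62 ± 0.37, adjusted p = 0.0245). A variant gene, annotated as the H3-like centromeric protein CSE4 (LOC101155705), stood at 209, 187 and 224 FPKM against 112 and 99.1 (0.96 ± 0.16, adjusted p = 0.00476). The H2A gene LOC101158068 went the other way, with 8.78, 5.96 and 8.11 FPKM against 19.6 and 33.2 (-1.64 ± 0.40, adjusted p = 0.0306). With September 2015 left out 58 of the 66 were again positive. With the step term 31 were called higher and 2 lower, beside 1253 and 653 of all 16493 genes. Between June and December 12 were called higher and 3 lower, beside 6.72% and 7.03% of all genes. These genes are present in many near-identical copies, which may share reads. The RNA was poly-T selected, and how fully that captured histone transcripts is not known.

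Several genes called between equinoxes had the opposite sign between solstices, 10 of 716, none of them called there in that direction. Among them, the retinoic acid degrading enzyme gene cyp26b1 stood at 10.6, 9.85 and 4.44 FPKM in September and 3.63 and 1.91 in March, and at 2.98 in June and 4.26 in December. The aldolase B gene (LOC100049273) stood at 11.5, 13.5 and 12.4 FPKM against 6.19 and 7.5, with 7.12 in June and 9.45 in December. The AP-1 transcription factor gene (LOC101160956) stood at 13.2, 14.1 and 12.7 FPKM against 8.56 and 7.51, with 10.7 and 13.1. The adjusted p of the difference between the contrasts was over 0.7 in each, so they are not shown to differ.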
